A study of Saccharomyces cerevisiae with 12 samples.

Results

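The response of wild type Saccharomyces cerevisiae to a shift from air to nitrogen was measured on 4 of the 12 arrays of the series, 2 from cells after the shift and 2 from cells kept in air. All open reading frame probes of the arrays, 5974 in number, were read on each of them, and the arrays were chosen by their titles alone. The shifted cells were grown in air to an OD600 of 0.8 and then had nitrogen bubbled through the flask for 3 hours. The air cells were grown with oxygen throughout. Both were BY4741, a laboratory haploid from the EUROSCARF collection that carries deletions in HIS3, LEU2, MET17 and URA3, and cultures of both were kept at 30 °C, with glucose at 2% in a synthetic complete medium. RNA was copied with an oligo(dT) primer into cDNA labelled with 32P, and the radioactive signal of each probe was recorded as an intensity. The other groups used below for comparison included wild type cells kept overnight in anaerobic jars (2 arrays). The jar medium also held ergosterol at 20 mg/l and Tween 80 at 0.5%. The rest were cells labelled ixr1 null, a deletion of the high mobility group protein Ixr1. They were measured after the same shift, in air, and overnight in jars with that supplement (2 arrays each). The labels mention the sterol and detergent supplement for the jars and not for the shift.

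Yeast needs molecular oxygen for respiration and for the synthesis of heme, ergosterol and unsaturated fatty acids. In air, heme activates Hap1 and the Hap2 to Hap5 complex, and Hap1 switches on the gene of the repressor Rox1, which keeps hypoxic genes off. When oxygen falls, Rox1 is lost, genes such as ANB1, COX5B, CYC7, HEM13 and the DAN, TIR and PAU families of wall mannoproteins are known to come on, and ATP is made by glycolysis with ethanol as the end product.

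Each deposited array was scaled to a mean near 1, so a deposited intensity gives a probe's share of an array's signal. Less RNA per cell cannot be told apart from fewer cells carrying a transcript. Readings given in the text are quantile normalized over the 12 arrays unless said otherwise, so a reading reflects a probe's rank on its array. TDH2 in air, for example, was 151 and 187 as deposited and 112 and 112 after normalization. The shift arrays, lettered A and B, differed from each other. Shift array A held 834 probes at exactly 0 and shift array B 69, against 316 and 647 on air arrays A and B, and a 0 was treated as not detected. The rank correlation between the shift arrays was 0.692, a description over 5974 probes that share their arrays, against 0.830 between the air arrays. Shift array B correlated with air array B at 0.806, above its correlation with shift array A. The design text of the series gives 2 biological and 2 technical replicates per growth condition but does not say which the letters mark, so a p-value here reflects array-to-array spread that may be no more than technical. The median absolute log2 difference between A and B was 0.95 for the shift and 0.48 for air. With 2 arrays against 2, an exact permutation test cannot go below a two-sided p of 0.333, so tests rest on limma, which pools the spread of all 12 arrays.

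After the shift 15 probes rose and 20 fell of the 4672 that had a value on all 4 arrays, at an adjusted p under 0.05 (limma, Benjamini-Hochberg over all of them). These 35 probes are 0.749% of those tested, 0.321% higher and 0.428% lower, and the smallest change among them was 5.16-fold. The risers included TSA2, of peroxide defence, SIP18, of desiccation stress, and RPL29, of the ribosome. The fallers included the glyceraldehyde-3-phosphate dehydrogenases TDH1, TDH2 and TDH3, aldolase, wall genes, LEU1 of leucine synthesis, FIT3 of iron uptake and 3 Ty reading frames. At an unadjusted p under 0.05 there were 739 probes, and the median log2 difference over all tested probes was 0.04. Each riser lay above both air arrays on both shift arrays and each faller below, as did 23.4% and 19.6% of all tested probes. Of the probes with a value on both air arrays, 465 were left out of the test for a 0 on shift array A only. Another 7 were left out for a 0 on shift array B only. A fall to 0 is thus not among the fallers or in the list medians, and this bears mostly on shift array A.

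**Figure D1:**
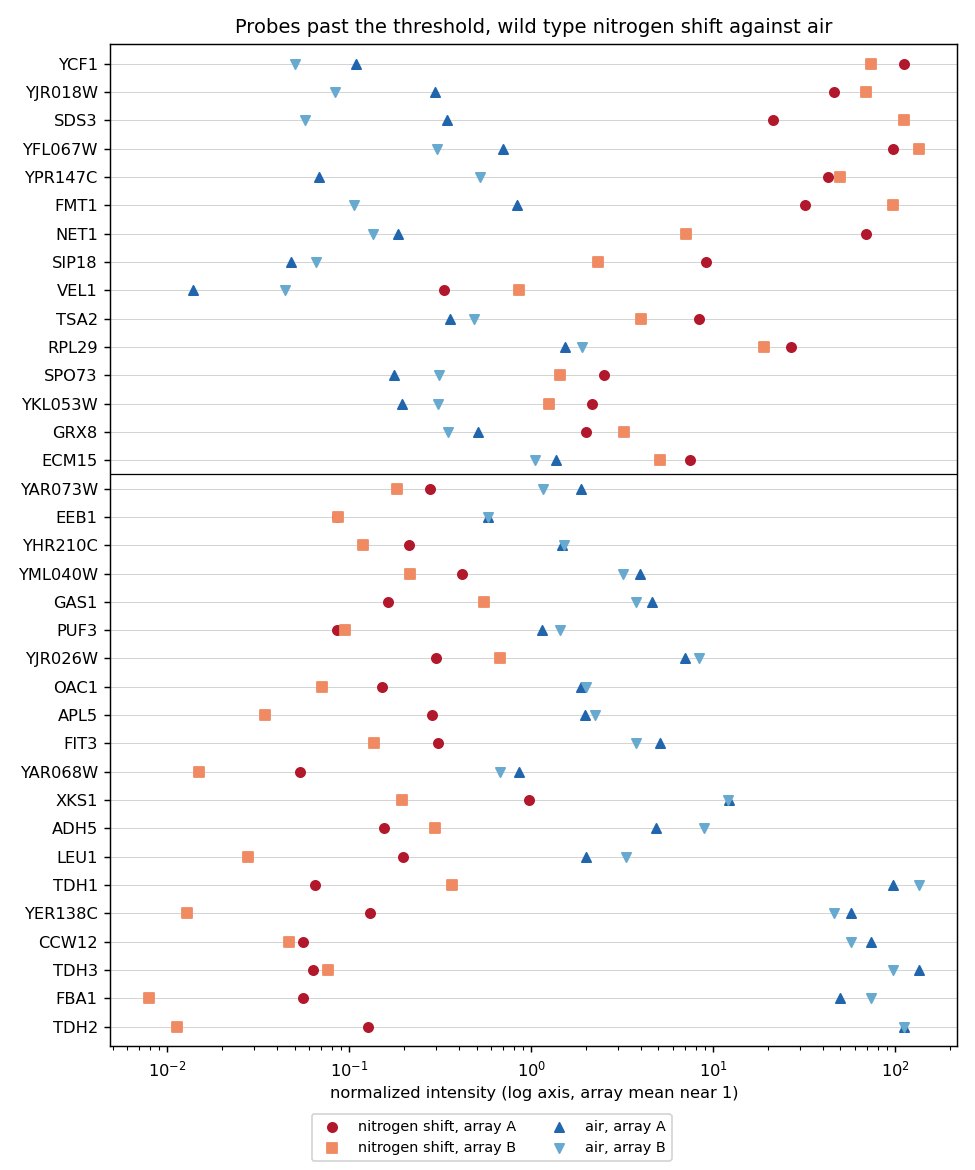
Normalized intensity (log axis, horizontal) of the 35 probes past the threshold, with red and orange symbols for shift arrays A and B and blue symbols for air arrays A and B. Risers are above the line and fallers below it. Shift and air symbols are separated for each probe, and the largest differences of the group means, over 7 log2 units, are at the top and the bottom.

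Among the stress and redox genes, TSA2 encodes a thioredoxin peroxidase of the cytosol, an inducible relative of TSA1. It read 8.38 and 4.03 on the shift arrays, against 0.360 and 0.484 in air, a rise of 13.9-fold (log2 3.80 ± 0.54, adjusted p = 0.0101). SIP18, a small hydrophilic protein made under osmotic and desiccation stress, read 9.14 and 2.33 on the shift arrays, against 0.0476 and 0.0654 in air, both air values being dim (under the 10th percentile of an array's positive values), and it rose by a log2 difference of 6.37 ± 0.93 (adjusted p = 0.0115). In both genes shift array A was the higher of the shift arrays, and neither came near the air readings. GRX8, a glutaredoxin, read 2.01 and 3.23 on the shift arrays, against 0.508 and 0.347 in air and rose 6.07-fold (adjusted p = 0.0393). Here shift array B was the higher, and the call of GRX8 was lost in 8 of 13 alternative settings.

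RPL29 encodes a small protein of the large ribosomal subunit. It read 26.7 and 19.1 on the shift arrays, against 1.54 and 1.90 in air and rose 13.2-fold (log2 3.72 ± 0.71, adjusted p = 0.0468). The call of RPL29 was lost in 10 of 13 alternative settings, with an adjusted p of 0.123 in limma on the deposited values. ECM15 and YKL053W, given next, lost theirs in 8 of the 13. ECM15 read 7.46 and 5.11 on the shift arrays, against 1.37 and 1.05 in air, a rise of 5.16-fold. SPO73, named for sporulation, read 2.52 and 1.44 on the shift arrays, against 0.176 and 0.311 in air (log2 3.02 ± 0.51), and the unnamed reading frame YKL053W read 2.14 and 1.25 on the shift arrays, against 0.194 and 0.307 in air (log2 2.75 ± 0.48). None of these 4 was dim in either condition, and the A and B readings of each lay closer to each other than to air. VEL1, dim on both air arrays, read 0.330 and 0.859 after the shift, against 0.0138 and 0.0443 in air (log2 4.43 ± 0.71, adjusted p = 0.0267). The size of its rise depends on those dim readings, with a log2 of 6.12 on the deposited values and of 3.82 with zeros kept at a floor, where the call was lost (adjusted p = 0.250).

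The other 7 risers changed by more than 7 log2 units. YCF1, a vacuolar pump for glutathione conjugates, was the 2nd and 4th brightest probe after the shift, with 112 and 73.2, against 0.108 and 0.0504 in air (log2 10.26 ± 0.52). YJR018W read 46.3 and 68.7 on the shift arrays, against 0.294 and 0.0833 in air, YFL067W 97.3 and 135 on the shift arrays, against 0.697 and 0.302 in air, and YPR147C 42.6 and 49.7 on the shift arrays, against 0.0677 and 0.521 in air. SDS3, a subunit of the Rpd3 histone deacetylase complex, read 21.2 and 112 on the shift arrays, against 0.343 and 0.0569 in air. FMT1, the formyltransferase of the mitochondrial initiator transfer RNA, read 32.1 and 97.3 on the shift arrays, against 0.830 and 0.106 in air. The nucleolar protein NET1, which anchors the phosphatase Cdc14, read 68.7 and 7.12 on the shift arrays, against 0.186 and 0.135 in air, with shift array A far above shift array B. Their log2 differences ran from 7.12 to 10.26, with adjusted p between 1.20e-05 and 0.00488 (limma).

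Among the fallers, 6 were of that size too. TDH3, TDH2 and TDH1, which code for the glyceraldehyde-3-phosphate dehydrogenases of glycolysis, held the first 3 places by brightness on both air arrays. TDH3 read 0.0634 and 0.0766 on the shift arrays, against 135 and 97.3 in air (log2 -10.68 ± 0.51, adjusted p = 1.20e-05), TDH2 0.126 and 0.0112 on the shift arrays, against 112 and 112 in air (log2 -11.53 ± 1.03, adjusted p = 0.000339), and TDH1 0.0645 and 0.365 on the shift arrays, against 97.3 and 135 in air (log2 -9.55 ± 1.19, adjusted p = 0.00586). The coding sequences of these 3 genes are closely similar, so their signals may not be separate. FBA1, aldolase, read 0.0559 and 0.00792 on the shift arrays, against 49.7 and 73.2 in air, and CCW12, an abundant mannoprotein of the wall, 0.0554 and 0.0467 on the shift arrays, against 73.2 and 57.3 in air. Before quantile normalization the shift readings were 0.00707 and 0.0274 for FBA1 and 0.00663 and 0.0739 for CCW12. There shift array B was the higher for both, so their order of A and B depends on the scaling. The Ty1 reading frame YER138C read 0.131 and 0.0127 on the shift arrays, against 57.3 and 46.3 in air. The shift readings of these 6 probes lay at or under 0.365, and at least 1 of each pair was dim.

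The remaining 14 fallers lost 2.71 to 5.12 log2 units. ADH5, an alcohol dehydrogenase, read 0.154 and 0.295 on the shift arrays, against 4.84 and 8.87 in air (log2 -4.94 ± 0.60, adjusted p = 0.00494). LEU1, the isopropylmalate isomerase of leucine synthesis, read 0.198 and 0.0277 on the shift arrays, against 2.00 and 3.31 in air (log2 -5.12 ± 0.87, adjusted p = 0.0457), and OAC1, the mitochondrial carrier of oxaloacetate that also carries isopropylmalate, read 0.152 and 0.0711 on the shift arrays, against 1.87 and 2.00 in air (log2 -4.22 ± 0.62, adjusted p = 0.0267). LEU1 and OAC1 thus fell together on both shift arrays, with shift array B the lower for each. FIT3, a wall mannoprotein that retains iron siderophores, read 0.306 and 0.137 on the shift arrays, against 5.11 and 3.74 in air (log2 -4.41 ± 0.52, adjusted p = 0.00488). GAS1, a wall glucanosyltransferase, read 0.163 and 0.551 on the shift arrays, against 4.63 and 3.79 in air (log2 -3.81 ± 0.63, adjusted p = 0.0317).

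XKS1, xylulokinase, read 0.976 and 0.195 on the shift arrays, against at least 12 on both air arrays (log2 -4.80 ± 0.86). PUF3, an RNA-binding protein that controls messenger RNAs of mitochondrial proteins, read 0.0854 and 0.0942 on the shift arrays, against 1.14 and 1.44 in air (log2 -3.84 ± 0.57). Its shift readings before quantile normalization were 0.0403 and 0.114, and on the deposited values its adjusted p was 0.0505. EEB1, of medium-chain ethyl ester synthesis, read 0.0856 and 0.0871 after the shift, against 0.576 and 0.581 in air (log2 -2.74 ± 0.47), with shift readings of 0.0405 and 0.107 before normalization and an adjusted p of 0.222 on the deposited values. APL5, a subunit of the AP-3 vesicle coat, read 0.284 and 0.0343 on the shift arrays, against 1.97 and 2.24 in air (log2 -4.41 ± 0.80). The Ty reading frames YJR026W and YML040W fell with log2 differences of -4.09 and -3.57, and the reading frames YAR068W, YHR210C and YAR073W with -4.75, -3.23 and -2.71. Of the 35 probes, 4 risers were dim in that sense on an air array and 11 fallers on a shift array, and 20 were dim in neither condition.

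The 13 largest changes had a further property, shared with 5 of the other 22. Each of them separated all 8 low-oxygen arrays of the series, shift and jar, of both labelled genotypes, from all 4 air arrays. The 35 probes were chosen on 4 of these 12 arrays, so part of the separation is built in. The share of all probes that separate in this way was not counted. YCF1 stayed at or above 73.2 on the 8 low-oxygen arrays, against at most 0.108 on the 4 air arrays, and TDH2 stayed at or under 4.65, against at least 85.3 in air. Over all probes, 6 were above 20 on the 8 low-oxygen arrays and under 5 on the 4 air arrays (YCF1, YJR018W, SDS3, YFL067W, YPR147C and FMT1). Another 6 did the reverse (TDH1, TDH2, TDH3, FBA1, CCW12 and GPM1). GPM1, phosphoglycerate mutase, is outside the tested probes since it read 0 and 0.0663 after the shift, against 68.7 and 68.7 in air. The sources used here do not give how spots were matched to names on each array, and the part of that in these values was not tested.

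**Figure D2:**
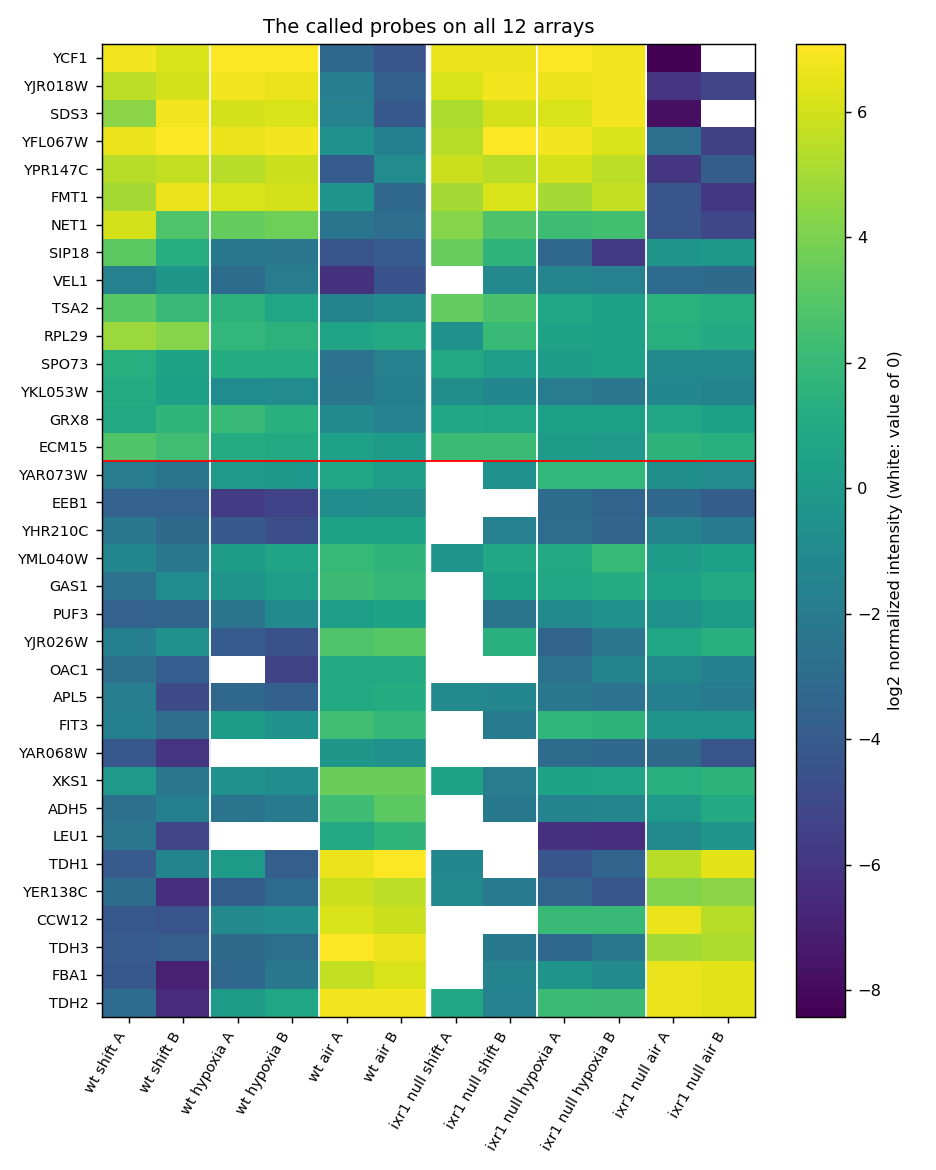
log2 normalized intensity (colour, white for a value of 0) of the 35 probes past the threshold on all 12 arrays, wild type on the left and cells labelled ixr1 null on the right, each in the order shift, overnight hypoxia and air. The 6 rows at the top are bright and the 6 at the bottom mostly dim on all low-oxygen arrays of both labelled genotypes, and the middle rows vary more.

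Only 9 probes were among the 20 brightest of both shift arrays. They were YCF1, YFL067W, YJR018W, YPR147C, FMT1, AHP1 (a peroxiredoxin), YCR013C, ENO1 (enolase) and CWP2 (a wall mannoprotein). Of these, AHP1 was not among the 20 brightest of both air arrays, ranking 28th on air array A and 16th on air array B, and YCR013C, ENO1 and CWP2 were. The names in this paragraph that no threshold picked were chosen after their values were seen.

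Set against the mean of the air arrays, shift array A moved 2243 of the 4672 probes by at least 2-fold and shift array B 1617. Both moved up by that much for 426 probes and both down for 299, whereas 111 were up on A and down on B and 51 the reverse. The sign was shared by 60.5% of probes, and the correlation between the 2 sets of differences was 0.40 across probes, which share the air arrays and are not independent. Without shift array A the count past the threshold was 93 (11 higher, 82 lower), and without shift array B 321 (94 higher, 227 lower), against 35 with both. It was 12 without either of the air arrays.

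**Figure D3:**
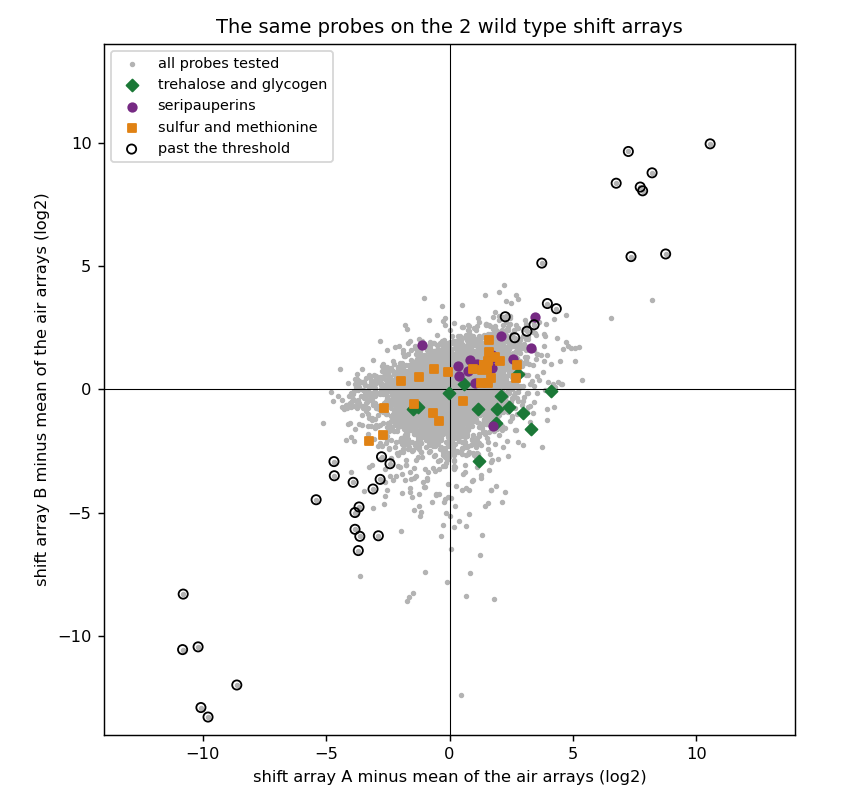
log2 difference from the mean of the air arrays on shift array A (horizontal) and on shift array B (vertical) for the 4672 probes tested, with 3 gene lists in colour and the 35 probes past the threshold circled. Most seripauperins and most sulfur genes lie to the upper right, while most trehalose and glycogen genes are right of 0 on A and below 0 on B.

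Among the regulators of the oxygen response none was past the threshold. Of 11 tested in the list of oxygen and heme regulators, 6 lay below both air arrays on both shift arrays (54.5%, against 19.6% of all probes) and 3 above (27.3%, against 23.4% of all probes, median log2 -0.79, -0.43 on A and -1.36 on B). The repressor ROX1 read 1.13 and 0.861 on the shift arrays, against 2.87 and 3.13 in air (log2 -1.60 ± 0.41, adjusted p = 0.118). TUP1, the corepressor that works with it, read 0.589 and 0.126 on the shift arrays, against 1.46 and 0.927 in air (adjusted p = 0.190), and HAP1, the heme-responsive activator, 2.63 and 1.41 on the shift arrays, against 2.94 and 3.77 in air (adjusted p = 0.513). IXR1 itself read 4.04 and 3.27 on the shift arrays, against 9.69 and 7.29 in air (log2 -1.21 ± 0.48, adjusted p = 0.264). MGA2, the membrane-bound activator of OLE1, read 3.31 and 0.848 on the shift arrays, against 0.427 and 0.431 in air (adjusted p = 0.272), shift array A being the higher. HAP3, of the respiratory activator complex, read 0.479 and 0.469 on the shift arrays, against 0.228 and 0.221 in air. MOT3, a repressor of hypoxic genes, was at 0 on shift array A and at or under 0.197 on the others.

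The classical hypoxic genes did not move as a group. In the list of hypoxic counterparts and Rox1 targets, 4 of 12 lay above both air arrays (33.3%) and 4 below (33.3%, against 23.4% above and 19.6% below over all probes), 0 were past the threshold in limma, and the median was 0.19, with -0.51 on A and 0.32 on B. CYC7, the hypoxic isoform of cytochrome c, read 0.388 and 0.355 on the shift arrays, against 0.0971 and 0.106 in air (log2 1.87 ± 0.46, adjusted p = 0.117). COX5B, the hypoxic subunit of cytochrome oxidase, read 3.44 and 1.30 on the shift arrays, against 1.40 and 0.610 in air (log2 1.19 ± 0.65), with the groups overlapping. HEM13, coproporphyrinogen oxidase, read 6.16 and 5.21 on the shift arrays, against 3.58 and 4.35 in air (log2 0.52 ± 0.48), and HMG2, the hypoxic HMG-CoA reductase, 0.531 and 0.490 on the shift arrays, against 0.329 and 0.149 in air (log2 1.21 ± 0.52). All of the shift readings of HEM13 and HMG2 were above those in air, by less than the test asks for.

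ANB1, the eIF5A isoform known from hypoxic cells, read 2.22 and 3.52 on the shift arrays, against 2.65 and 3.42 in air (log2 -0.10 ± 0.51), and its aerobic counterpart HYP2 2.61 and 1.37 on the shift arrays, against 2.73 and 3.83 in air (log2 -0.77 ± 0.51). The 2 genes are near-identical in sequence, and a signal shared between their probes was not tested for. INO1, of inositol synthesis, read 0.490 and 1.67 on the shift arrays, against 9.51 and 5.42 in air (log2 -2.99 ± 0.66, adjusted p = 0.0744). AAC3, the ADP/ATP carrier of anaerobic cells, read 0.0691 and 0.0118 after the shift and was listed at 0 on both air arrays. On the aerobic side, PET9, the main ADP/ATP carrier of respiring cells, read 0.135 and 0.0923 on the shift arrays, against 0.399 and 0.608 in air (log2 -2.14 ± 0.48, adjusted p = 0.0960). COX5A, the aerobic partner of COX5B, read 0.165 and 0.265 on the shift arrays, against 0.553 and 0.382 in air (log2 -1.14 ± 0.54), and CYC1, the aerobic cytochrome c, 0.141 and 0.177 on the shift arrays, against 0.121 and 0.174 in air (log2 0.13 ± 0.59). In the list of aerobic counterparts 3 of 6 lay below both air arrays (50.0%, against 19.6% of all probes) and 0 above (median -0.87).

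The seripauperins, small wall mannoproteins that yeast makes without oxygen and that are near copies of each other, were higher as a family. All 18 tested had a positive log2 difference, and 14 lay above both air arrays on both shift arrays (77.8%, against 23.4% of all probes), with a median of 1.13 (1.49 on A, 1.10 on B) beside 0.04 for all probes. None was past the threshold in limma. PAU2 read 0.908 and 0.631 on the shift arrays, against 0.0373 and 0.186 in air (log2 3.19 ± 0.70, adjusted p = 0.0744), and PAU7 0.238 and 0.252 on the shift arrays, against 0.0417 and 0.0764 in air (log2 2.12 ± 0.48, adjusted p = 0.0844). Among the brighter members, named after their values were seen, were PAU4, at 2.54 and 2.04, against 0.703 and 0.862 in air, and PAU11, at 2.02 and 1.46, against 0.530 and 0.684 in air. The smallest differences were those of PAU19 and PAU20, at 0.15 and 0.35, both overlapping with air. Since the copies share sequence, the 18 probes are not 18 separate measurements.

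The DAN and TIR genes, which replace the aerobic mannoproteins of the wall under anaerobic conditions, did not move as a group on both shift arrays. Of 7 tested, 2 were above both air arrays (TIR3 and PAU23, also called DAN2), or 28.6%, against 23.4% of all probes. TIR1 was below both, or 14.3%, against 19.6% of all probes. Both shares were near those of all probes. TIR3 read 0.382 and 0.838 on the shift arrays, against 0.0616 and 0.0561 in air (log2 3.27 ± 0.94, adjusted p = 0.141), PAU23 1.03 and 1.03 on the shift arrays, against 0.426 and 0.441 in air (log2 1.25 ± 0.50), and TIR1 0.200 and 0.686 on the shift arrays, against 0.783 and 0.962 in air (log2 -1.23 ± 0.67). The shift arrays differed most over DAN1, which read 0 on A and 2.48 on B, against 0.0538 and 0.113 in air. DAN1 is not among the 7 tested, because of its 0 on A. Of those 7, 5 had a positive log2 difference, and the list's median was 0.80, with 0.11 on A and 1.35 on B. AUS1 and PDR11, transporters that take up sterol, were at 0 on shift array A as well. None of the 5 sterol uptake probes could be tested, since 4 were at 0 on shift array A and SUT1 was at 0 on air array B.

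**Figure D4:**
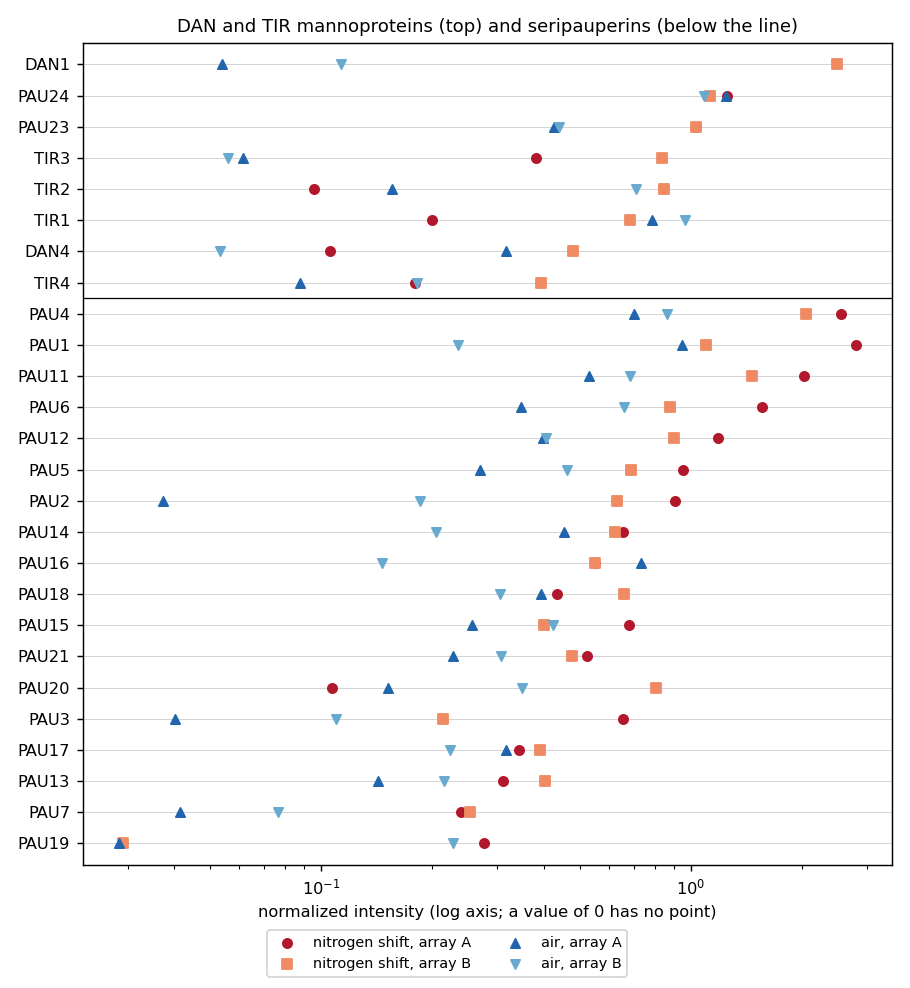
Normalized intensity (log axis, horizontal) of the DAN and TIR genes, above the line, and of the 18 seripauperins, below it, with red and orange symbols for the shift arrays and blue for the air arrays. In the seripauperins the shift symbols are mostly right of the air symbols, and DAN1 has no point for shift array A.

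Among the pathways that use oxygen, no gene was past the threshold in limma. In ergosterol synthesis, 6 of 21 lay above both air arrays (28.6%, close to the 23.4% of all probes) and 1 below (4.76%, against 19.6% of all probes), with a median of -0.31 on A and 0.64 on B (together -0.07, and 0.01 with arrays centred on their medians). ERG28, a scaffold of the C4 demethylation complex, read 2.27 and 2.80 on the shift arrays, against 0.502 and 0.793 in air (log2 2.00 ± 0.48, adjusted p = 0.104). ERG27, the 3-keto reductase of that complex, read 3.00 and 3.22 on the shift arrays, against 1.08 and 1.27 in air (log2 1.41 ± 0.42, adjusted p = 0.150). ERG13, HMG-CoA synthase at the start of the pathway, read 0.240 and 0.283 on the shift arrays, against 0.386 and 0.604 in air (log2 -0.89 ± 0.50). ERG11, the oxygen-requiring demethylase, overlapped, with 0.278 and 0.806 after the shift, against 1.31 and 0.307 in air. OLE1, the fatty acid desaturase that needs oxygen, read 1.64 and 2.59 on the shift arrays, against 3.99 and 1.82 in air (log2 -0.39 ± 0.59). In the fatty acid list 4 of 10 lay above both air arrays (23.4% of all probes did) and 0 below (median -0.20). ACC1, acetyl-CoA carboxylase, read 7.02 and 3.90 on the shift arrays, against 3.53 and 3.64 in air (log2 0.55 ± 0.45). In heme synthesis and breakdown the smallest p belonged to HMX1, heme oxygenase, at 0.277 and 0.184, against 1.20 and 1.16 in air (log2 -2.38 ± 0.60, adjusted p = 0.113), beside a list median of -0.14 over 7 genes.

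Of the genes of glycolysis and fermentation 5 fell, TDH1, TDH2, TDH3, FBA1 and ADH5. They were 0 of 6 tested in upper glycolysis, 4 of 10 in lower glycolysis and 1 of 13 from pyruvate to ethanol, against 0.428% of all probes. The similar TDH genes and FBA1 are among the 6 probes given above as bright in air and faint on all low-oxygen arrays. In lower glycolysis, from aldolase to pyruvate kinase, 9 of 10 tested members lay below both air arrays (90.0%, against 19.6% of all probes), with a median of -1.33 (-1.45 on A, -1.22 on B). The tested members other than the TDH genes and FBA1 had log2 differences from -1.38 to -0.25, none past the threshold. ENO2, the glucose-induced enolase, read 8.31 and 10.3 on the shift arrays, against 29.6 and 19.4 in air (log2 -1.38 ± 0.45, adjusted p = 0.190), CDC19, pyruvate kinase, 2.96 and 3.28 on the shift arrays, against 8.92 and 6.53 in air (log2 -1.29 ± 0.44), and PGK1, phosphoglycerate kinase, 12.8 and 12.4 on the shift arrays, against 31.0 and 21.8 in air (log2 -1.05 ± 0.43). ENO1 remained bright, at 28.3 and 25.5, against 38.1 and 35.6 in air. These 4 genes were named after their values were seen, and the A and B readings of the shift were close for each of them. In upper glycolysis 3 of 6 lay below both air arrays (50.0%, against 19.6% of all probes, median -0.62). Among them was PFK1, a phosphofructokinase subunit, at 1.14 and 0.829, against 2.29 and 2.43 in air (log2 -1.28 ± 0.48). HXK1, a hexokinase, went the other way on shift array A only, with 8.10 and 0.538 after the shift, against 1.11 and 0.701 in air.

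From pyruvate to ethanol, 9 of 13 genes lay below both air arrays (69.2%, against 19.6% of all probes) and 1 above, with a median of -0.95. ADH5 was the member that fell. ADH2, the glucose-repressed alcohol dehydrogenase, read 3.64 and 1.63 on the shift arrays, against 24.1 and 20.0 in air (log2 -3.18 ± 0.91, adjusted p = 0.141), and ADH1, the main fermentative enzyme, 3.68 and 21.2 on the shift arrays, against 35.6 and 28.3 in air (log2 -1.84 ± 1.03), both named after their values were seen. ALD5, a mitochondrial aldehyde dehydrogenase, read 0.0847 and 0.0399 on the shift arrays, against 0.574 and 0.360 in air (log2 -2.97 ± 0.78). The exception was ALD3, a stress-induced aldehyde dehydrogenase, at 7.17 and 0.582, against 0.146 and 0.0411 in air (log2 4.72 ± 1.29, adjusted p = 0.132). Of 15 glucose transporters and sensors on the arrays 8 could be tested, and the others had a value of 0. Of the 8 tested, 4 lay below both air arrays (50.0%, against 19.6% of all probes) and 0 above (against 23.4% of all probes). Their median was -1.19, but it was -0.17 with zeros kept at a floor, where members at 0 enter too. HXT1, of low affinity, read 4.17 and 4.45 on the shift arrays, against 10.5 and 9.51 in air (log2 -1.21 ± 0.44), and HXT4, of higher affinity, 0.379 and 0.243 on the shift arrays, against 1.67 and 1.16 in air (log2 -2.20 ± 0.52, adjusted p = 0.112). The transporters share sequence and their signals may be mixed.

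Genes of glycerol formation, which reoxidizes NADH when respiration stops, had a median of -0.02 over 11 members (0.11 with arrays centred on their medians). GPD2, the glycerol-3-phosphate dehydrogenase known to be induced without oxygen, read 0.0733 and 0.147 on the shift arrays, against 0.367 and 0.488 in air (log2 -2.03 ± 0.70, adjusted p = 0.218), and GPP2, a glycerol phosphatase, 0.298 and 2.05 on the shift arrays, against 2.14 and 3.68 in air (log2 -1.84 ± 0.80). GUT1, glycerol kinase, read 0.763 and 0.450 on the shift arrays, against 0.179 and 0.324 in air (log2 1.28 ± 0.51). The respiratory chain and ATP synthase were centred on 0 (median -0.02 over 32 genes, 0.06 with arrays centred on their medians, 7 above both air arrays and 5 below, or 21.9% and 15.6%, against 23.4% above and 19.6% below over all probes). COX7 and COX9, small subunits of cytochrome oxidase, were at 2.56 and 1.91, and ATP2 and COX6, of ATP synthase and of the oxidase, at -1.64 and -1.25 on the log2 scale. The citrate and glyoxylate cycles had a median of -0.66 over 18 genes, with ICL1, isocitrate lyase, at 0.0611 and 0.126, against 0.213 and 0.300 in air.

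Of 23 structural wall genes tested, 14 lay below both air arrays (60.9%, against 19.6% of all probes) and 3 above, 2 fell, CCW12 and GAS1, and the median was -1.45 (-0.88 on A, -1.49 on B). HSP150, a wall mannoprotein with internal repeats, read 3.22 and 1.26 on the shift arrays, against 16.7 and 15.4 in air (log2 -2.99 ± 0.60, adjusted p = 0.0618). The 3 members above both air arrays were CRH1, TIP1 and SPI1. TIP1, a cold-shock mannoprotein, read 7.63 and 7.92 on the shift arrays, against 4.80 and 4.26 in air (log2 0.78 ± 0.67). SPI1, a wall protein of stationary phase and weak acid stress, read 22.7 and 2.30 on the shift arrays, against 0.931 and 1.13 in air (log2 2.81 ± 1.12, adjusted p = 0.266), with shift array A far above shift array B.

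**Figure D5:**
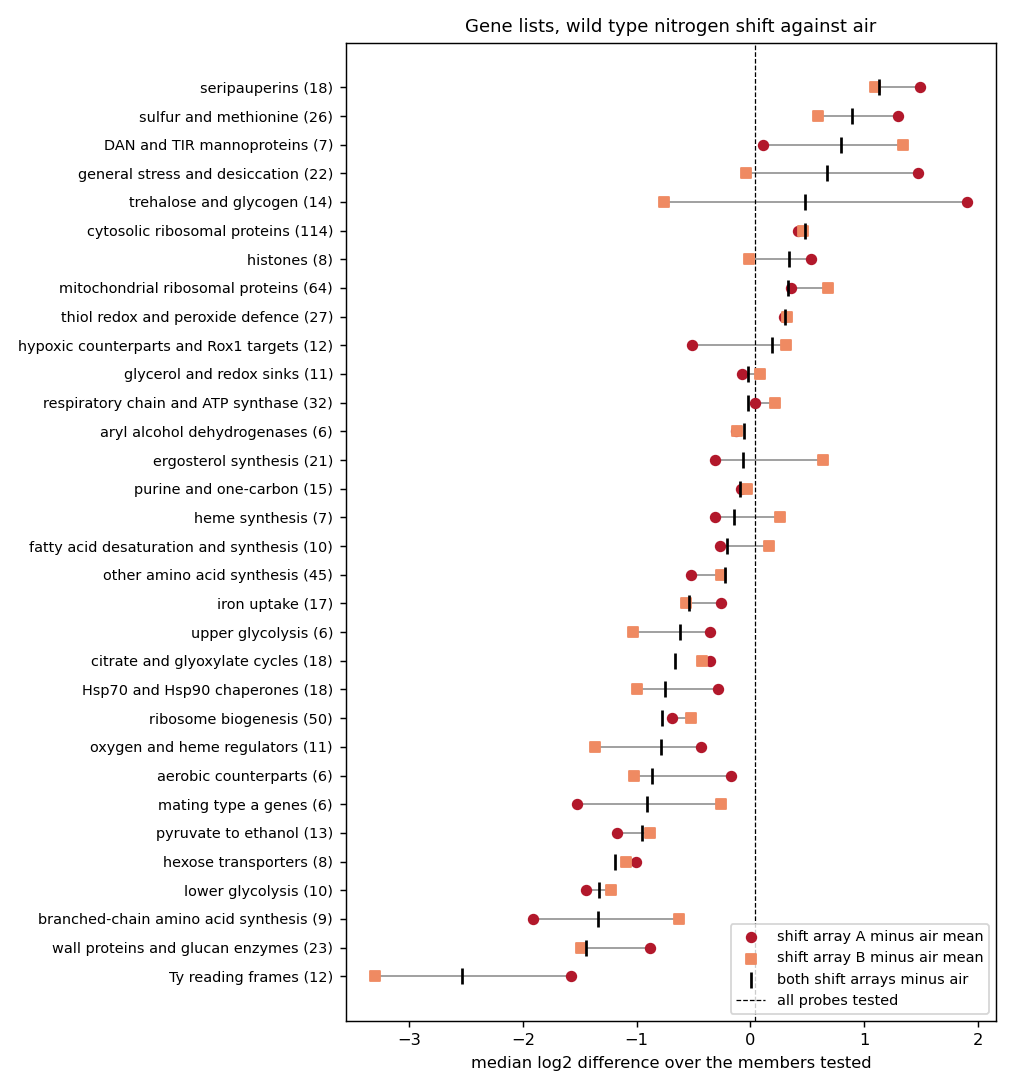
Median log2 difference from air over the tested members of 32 gene lists, the number tested in brackets, with red circles for shift array A, orange squares for shift array B, black ticks for both and a dashed line for all probes tested (0.04). Seripauperins and sulfur genes are right of the line and glycolysis, wall and Ty frames left of it on both arrays, while trehalose and glycogen genes are at 1.91 on A and -0.76 on B.

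The stress and storage genes were among those over which the shift arrays parted. Other lists had wide gaps too, such as the Ty reading frames, with medians of -1.58 on A and -3.30 on B. In trehalose and glycogen metabolism the median was 1.91 on shift array A and -0.76 on shift array B. On both shift arrays 0 of 14 members lay above both air arrays (23.4% of all probes did). TSL1, a subunit of trehalose synthase, read 10.8 and 0.587 on the shift arrays, against 0.482 and 0.806 in air (log2 2.01 ± 1.46), and PGM2, phosphoglucomutase, 1.43 and 0.320 on the shift arrays, against 0.106 and 0.408 in air (log2 1.70 ± 0.88). GSY2, the main glycogen synthase, was low on both, with 0.545 and 0.822 after the shift, against 1.24 and 1.43 in air (log2 -0.99 ± 0.46). The general stress and desiccation list had medians of 1.48 on A and -0.04 on B, with 7 of 22 above both air arrays (31.8%, against 23.4% of all probes), 1 below, and 1 riser, SIP18. HSP12, a membrane-stabilizing stress protein, was the brightest probe of shift array A at 135, read 19.4 on shift array B, and read 4.71 and 5.65 in air (log2 3.31 ± 0.79, adjusted p = 0.104). GRE2, a reductase of osmotic stress, was lower than air on both shift arrays, with 0.179 and 1.69 after the shift, against 2.21 and 1.82 in air.

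Of 18 Hsp70 and Hsp90 chaperones none passed the threshold, 8 lay below both air arrays (44.4%, against 19.6% of all probes) and 1 above (5.56%, against 23.4% of all probes), with a median of -0.75. SSA1, a cytosolic Hsp70, read 8.25 and 3.64 on the shift arrays, against 23.3 and 16.7 in air (log2 -1.84 ± 0.52, adjusted p = 0.139), and SSB2, the ribosome-bound Hsp70, 4.02 and 5.14 on the shift arrays, against 13.0 and 15.7 in air (log2 -1.65 ± 0.63). SSA3, a stress-induced Hsp70, read 0.842 and 0.877 on the shift arrays, against 0.361 and 0.645 in air (log2 0.83 ± 0.55). In thiol redox and peroxide defence, 10 of 27 were above both air arrays (37.0%) and 7 below (25.9%, against 23.4% above and 19.6% below over all probes), with TSA2 the only riser (median 0.30). HYR1, a glutathione peroxidase that also senses peroxide, read 9.69 and 7.88 on the shift arrays, against 3.45 and 2.53 in air (log2 1.56 ± 0.47, adjusted p = 0.154). TSA1, the main peroxiredoxin, went against its relative TSA2, with 1.72 and 9.62 after the shift, against 13.6 and 14.6 in air (log2 -1.79 ± 0.81, adjusted p = 0.317). GRX3, a glutaredoxin of iron regulation, read 0.439 and 0.932 on the shift arrays, against 1.30 and 1.46 in air (log2 -1.11 ± 0.47).

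Ribosome biogenesis and ribosomal proteins had medians of opposite sign. Of 50 ribosome biogenesis genes tested, 22 lay below both air arrays (44.0%, against 19.6% of all probes) and 4 above, with a median of -0.78, and NET1 was the riser among them. Of 65 members on the arrays, 15 were at 0 on shift array A and had no test. NOP15, a factor of large-subunit assembly, read 0.0595 and 0.0918 on the shift arrays, against 0.500 and 0.401 in air (log2 -2.60 ± 0.62), and ERB1, another, 0.118 and 0.548 on the shift arrays, against 1.42 and 1.93 in air (log2 -2.70 ± 0.70). NOP10, of pseudouridylation, read 2.07 and 3.83 on the shift arrays, against 0.128 and 0.703 in air (log2 3.23 ± 0.78). Of 114 cytosolic ribosomal protein genes, 50 lay above both air arrays (43.9%, against 23.4% of all probes) and 11 below, with a median of 0.48 (0.42 on A, 0.46 on B) and RPL29 the riser. RPS25A, of the small subunit, read 8.80 and 5.37 on the shift arrays, against 1.54 and 1.69 in air (log2 2.09 ± 0.46, adjusted p = 0.0744), and RPS1A 1.02 and 3.32 on the shift arrays, against 8.31 and 10.4 in air (log2 -2.33 ± 0.66). Many of these genes come in near-identical pairs whose signals may be mixed. Among mitochondrial ribosomal proteins 26 of 64 lay above both air arrays (40.6%) and 7 below (10.9%, against 23.4% above and 19.6% below over all probes), with a median of 0.33, and the smallest p belonged to MRPL37, at 1.11 and 1.60, against 0.253 and 0.354 in air (log2 2.15 ± 0.46, adjusted p = 0.0730).

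In amino acid synthesis the sulfur pathway and the branched-chain pathway had medians of opposite sign. Of 26 genes of sulfate assimilation and methionine, 13 lay above both air arrays (50.0%) and 6 below (23.1%, against 23.4% above and 19.6% below over all probes), none past the threshold, with a median of 0.89 (1.30 on A, 0.60 on B). MET14, adenylylsulfate kinase, read 12.5 and 16.2 on the shift arrays, against 3.79 and 4.43 in air (log2 1.79 ± 0.53, adjusted p = 0.147). MET10, a subunit of sulfite reductase, read 10.3 and 7.14 on the shift arrays, against 2.64 and 3.18 in air (log2 1.56 ± 0.53, adjusted p = 0.203). Among the low members, those of smallest p were SAH1 and SAM1. SAH1, adenosylhomocysteinase, read 0.330 and 0.739 on the shift arrays, against 3.70 and 2.70 in air (log2 -2.68 ± 0.54, adjusted p = 0.0730), and SAM1, S-adenosylmethionine synthetase, 2.58 and 4.55 on the shift arrays, against 16.2 and 16.9 in air (log2 -2.27 ± 0.60, adjusted p = 0.131). The strain lacks MET17, O-acetylhomoserine sulfhydrylase, and its probe read 0 and 0.00779 after the shift, against 0 and 0 in air.

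In the branched-chain list, 5 of 9 tested members lay below both air arrays (55.6%, against 19.6% of all probes), 0 above, and LEU1 fell (median -1.34, -1.91 on A and -0.63 on B). ILV6, the regulatory subunit of acetolactate synthase, read 0.766 and 0.734 on the shift arrays, against 3.21 and 2.60 in air (log2 -1.94 ± 0.45, adjusted p = 0.0951). The probe of LEU2, deleted in this strain, read 0.148 and 0.330 after the shift, against 0.0359 and 0 in air. A reading of that size is therefore not by itself evidence of a transcript, and many readings given here are at or under it. The probes of HIS3 and URA3, in which the strain also carries deletions, had a value above 0 on every shift and air array of both labelled genotypes. The other amino acid pathways had a median of -0.22 over 45 genes, with LYS20, homocitrate synthase, at 0.350 and 0.319, against 1.40 and 1.07 in air (log2 -1.87 ± 0.44), and HIS4, of histidine synthesis, at 0.865 and 0.930, against 0.479 and 0.456 in air (log2 0.94 ± 0.47). Purine and one-carbon genes had a median of -0.09 over 15, with ADE8 at 0.90 and SHM1 at -1.20 on the log2 scale. Of 17 iron uptake genes, 6 lay below both air arrays (35.3%, against 19.6% of all probes) and 0 above (median -0.53), with FIT3 the faller. FRE6, a vacuolar metal reductase, read 0.115 and 1.06 on the shift arrays, against 1.62 and 1.74 in air (log2 -2.26 ± 0.87).

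Of the Ty reading frames, all 12 tested had a negative difference, 9 lay below both air arrays (75.0%, against 19.6% of all probes) and 3 fell, with a median of -2.53 (-1.58 on A, -3.30 on B). These frames belong to many near-identical element copies, so they do not count as separate measurements. The mating type a genes had a median of -0.91 over 6, with 3 below both air arrays (50.0%, against 19.6% of all probes). Among them was STE2, the alpha-factor receptor, at 0.395 and 0.367, against 1.79 and 1.08 in air (log2 -1.87 ± 0.64). Histones had a median of 0.34 over 8, with HTZ1, the variant H2A.Z, at 0.119 and 1.15, against 2.06 and 1.72 in air. The AAD aryl alcohol dehydrogenases had a median of -0.06 over 6, none of them above both air arrays (23.4% of all probes were).

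Changes of detection lie outside the test, because a probe at 0 has no log value. After the shift, 47 probes were above 0 on both arrays and at 0 on both air arrays, and 5 did the reverse. The brightest of the first kind were YJL007C, PHO84 (the phosphate transporter), YLR108C, YHC3, FYV10, TGL2, PTH4 and CHK1 (a checkpoint kinase). PHO84 read 0.384 and 0.000381 after the shift, with shift array B close to 0, whereas YHC3, a vacuolar protein, read 0.168 and 0.210 and YLR108C 0.212 and 0.163. The 5 of the second kind were CPS1, APN2, FUS1, NUP60 and BNA7. CPS1, a vacuolar carboxypeptidase, read 0.739 and 0.333 in air, and the other 4 read at or under 0.190 there. Shift array A had 834 zeros and shift array B 69, and the part of that in these counts was not tested.

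Another 22 probes lay at least 4-fold above both air arrays and 20 at least 4-fold below without passing the threshold. NCE103, carbonic anhydrase, had the brightest shift reading of the 6 named above air, with 10.4 and 3.12 after the shift, against 0.565 and 0.269 in air (log2 3.87 ± 0.83, adjusted p = 0.0730). KGD4, a subunit of the 2-oxoglutarate dehydrogenase complex, read 1.06 and 0.849 on the shift arrays, against 0.181 and 0.181 in air (log2 2.39 ± 0.44, adjusted p = 0.0543). FIG4, a phosphoinositide phosphatase, YGR051C, TSC11, a subunit of TORC2, and VBA2, a vacuolar amino acid transporter, were at log2 differences of 2.63, 2.86, 3.07 and 3.29. Below air, NCA3 read 0.0953 and 0.101 on the shift arrays, against 1.13 and 0.722 in air (log2 -3.20 ± 0.60, adjusted p = 0.0557), UTH1 0.732 and 0.994 on the shift arrays, against 5.49 and 4.41 in air (log2 -2.53 ± 0.52, adjusted p = 0.0707), and PMP2, a proteolipid of the plasma membrane proton pump, 0.266 and 0.203 on the shift arrays, against 1.67 and 1.14 in air (log2 -2.57 ± 0.49, adjusted p = 0.0577). BUD27 and the Ty frame YJR028W were at -2.35 and -2.92.

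The 3 hour shift differed from overnight growth in anaerobic jars in 442 of 4893 probes (9.03%), 259 higher after the shift and 183 lower. That balance moved with the setting, to 184 higher and 196 lower with zeros kept at a floor, 203 and 190 on the deposited values, 238 and 338 without shift array A, and 252 and 324 without shift array B. Of the 35 probes changed against air, 32 could be tested against the jars and 9 were past that threshold. SIP18, RPL29 and ECM15 were higher after the shift than in the jars. SIP18 read 9.14 and 2.33 after the shift, against 0.228 and 0.209 in the jars (log2 4.40 ± 0.94, adjusted p = 0.0153), and RPL29 26.7 and 19.1, against 3.59 and 2.96 (log2 2.79 ± 0.71, adjusted p = 0.0363). TDH2 and CCW12 were lower after the shift than in the jars, with log2 differences of -5.07 ± 1.03 and -3.34 ± 0.52, as were FIT3 and YAR073W. EEB1 and YJR026W were less reduced, at 1.95 ± 0.47 and 3.09 ± 0.60. IXR1 read 4.04 and 3.27 after the shift, against 0.417 and 0.349 in the jars (log2 3.25 ± 0.48, adjusted p = 0.00213). The jar medium held sterol and detergent, and that supplement, the duration and the vessel cannot be told apart here.

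Some genes named above had an unlike reading in the jars. OLE1 read 1.64 and 2.59 after the shift, against 0.0754 and 0.180 in the jars (log2 4.15 ± 0.59, adjusted p = 0.00188), and TIR1 0.200 and 0.686, against 0.0343 and 0.0547 (log2 3.10 ± 0.67, adjusted p = 0.0199). In both the shift readings were the nearer to air. DAN1 was at 0 and 2.48 after the shift, against 1.36 and 3.69 in the jars.

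The arrays labelled ixr1 null gave the same comparison on other arrays, whose letters were not independent of the wild type ones. The A minus B deviations of the 2 labelled genotypes correlated at 0.648 across probes after the shift, 0.257 in air and 0.189 in the jars. The IXR1 probe read 3.47 and 2.82 after the shift and 9.69 and 8.80 in air on those arrays, close to the wild type readings, which goes against the label, so the genotype is given here only as labelled. Shift array A of that group held 3489 zeros, and 2178 probes could be tested for a difference in the response. None passed in the fit without the letters (0 of 2178, 0%, limma, and 213 at an unadjusted p under 0.05). With the letter as a replicate block within each condition, an alternative chosen after seeing the data, 26 passed (1.19%), each with a more positive response in the group labelled ixr1 null than in wild type, among them TDH2, XKS1 and APL5 (adjusted p = 0.0210, 0.0446 and 0.0446). In the group labelled ixr1 null, 44 of 2228 probes (1.97%) were past the threshold between shift and air, 41 higher and 3 lower. A probe at 0 on a shift array labelled ixr1 null could not be counted as lower, and it could not enter the test behind the 26 either. The part of this filter in the shared direction of the 26 was not tested. The block fit was made on the quantile normalized values only. Of the 35 wild type probes, 17 had a value on all 4 of those arrays, 15 had the same sign there, beside 64.1% of all 2178 probes, and 7 passed the threshold there too, all among the 13 with the largest changes.

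Outside those 13, TSA2, SIP18, GRX8, ECM15, YKL053W and RPL29 had smaller log2 differences on the arrays labelled ixr1 null than in wild type. TSA2 read 10.1 and 6.31 after the shift, against 2.83 and 2.35 in air (log2 1.63 ± 0.51, adjusted p = 0.163), and the difference from the wild type response was -2.17 ± 0.72 (adjusted p = 0.347). SIP18 read 11.3 and 3.11 after the shift, against 0.750 and 0.896 in air (log2 2.86 ± 0.91). GRX8, ECM15 and YKL053W were at 0.23, 0.68 and 0.35 there, against 2.60, 2.37 and 2.75 in wild type. RPL29 read 0.739 and 4.32 after the shift, against 2.48 and 2.11 in air, a difference of response of -4.08 ± 0.96 (adjusted p = 0.185). None of the differences of response of these 6 genes was past the threshold in either fit, which does not show that the responses were alike. List medians over the members tested in both labelled genotypes are descriptions. A member at 0 on a shift array labelled ixr1 null is left out of both medians, so a fall to 0 there is not counted. TDH3, left out in this way, read 0 and 0.224 on those shift arrays, against 31.0 and 35.6 in air. CCW12 read 0 and 0 on them, against 97.3 and 42.6 in air. The medians cover 6 of 10 lower glycolysis and 6 of 50 ribosome biogenesis genes tested in wild type. Over all probes the difference of response also moved with the scaling, as given below. Over all 2178 probes the median was 0.28 on the arrays labelled ixr1 null and 0.17 in wild type. It was 0.89 on the arrays labelled ixr1 null and 1.36 in wild type over 11 seripauperins. The median was 0.39 on the arrays labelled ixr1 null and -1.17 in wild type over 6 genes of lower glycolysis, and 0.30 on the arrays labelled ixr1 null and -1.29 in wild type over 18 wall genes. It was 0.68 on the arrays labelled ixr1 null and -0.64 in wild type over 6 branched-chain genes, 1.14 on the arrays labelled ixr1 null and -0.86 in wild type over 6 ribosome biogenesis genes, and -0.07 on the arrays labelled ixr1 null and -2.53 in wild type over 10 Ty reading frames.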

How the data were processed

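The deposited values are linear intensities of 32P-labelled cDNA, with 1 value for each reading frame on each array and array means near 1. For the image software, the background correction and the build behind the probe names, nothing is given in the sources used here. Of 5974 probes, 5571 were named through the RefSeq gene table and 403 kept their systematic name. The 12 arrays were quantile normalized with zeros included, zeros were then set to missing, and log2 values were fitted in limma 3.58.1 (R 4.3.3) with a mean per group over all 12 arrays, no covariate, and the contrasts shift minus air, shift minus hypoxia, and the difference of response between labelled genotypes. Two-sided p-values were adjusted by Benjamini-Hochberg over the probes detected on every array of the groups compared, at 0.05. The number of arrays limits the precision. The steps were tested on simulated data.

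The members and gene lists were chosen with earlier results of these data known. The named genes are all probes past the threshold, the 2 members of smallest p in each direction of each list, up to 8 probes in each direction of changed detection, up to 6 in each direction with a 4-fold gap, and a fixed set of oxygen, stress and strain marker genes. Lists are described by counts and medians, without a set test. UPC2, FAA1, PAU8, PAU9, PAU10, PAU22 and AAD16 were not analysed here, and promoter motifs were not examined. Alternatives covered the scaling, zeros, dim probes, the arrays fitted, the variance trend, each array left out and the letter as a block, over all arrays or within each condition.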

Additional observations from a re-analysis of the deposited data

Results flagged for a closer look

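In 4 of 91 named genes with a value on the 8 shift and air arrays of both labelled genotypes (4.40%), both wild type shift arrays lay on one side of air and both shift arrays labelled ixr1 null on the other. The share over all 2178 such probes was 6.06% (132), so the named genes did not exceed it. The difference of response, ixr1 null minus wild type, was tested in limma for each and did not pass the threshold, except APL5 with the letter as a replicate block within each condition (adjusted p = 0.0446). For APL5 the difference was 5.18 ± 1.10 (adjusted p = 0.155), with 0.501 and 0.430 after the shift, against 0.298 and 0.249 in air, on the arrays labelled ixr1 null. For HXT1 it was 1.61 ± 0.56 (adjusted p = 0.351), with 4.20 and 3.74 after the shift, against 3.32 and 2.72 in air. For GRX3 it was 1.35 ± 0.61 (adjusted p = 0.505), with 1.05 and 1.01 after the shift, against 0.850 and 0.890 in air. For HEM13 it was -1.07 ± 0.62 (adjusted p = 0.619), with 3.48 and 3.91 after the shift, against 5.01 and 5.79 in air. The wild type readings of these 4 genes are given above. The median of this difference over all probes moved with the scaling, from 0.05 to -0.49 on the deposited values and -1.16 with arrays centred on their medians.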

How the results depend on the processing

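All 35 wild type probes kept their sign under the 13 alternatives examined for single genes, and 5 (YCF1, YFL067W, CCW12, TDH3 and FBA1) kept the call in each, while 30 lost it in at least 1 and 10 in 7 or more. Those 10 were RPL29, EEB1, YKL053W, GRX8, ECM15, GAS1, YAR073W, YML040W, PUF3 and APL5. The count of 35 became 72 with dim probes left out, where fewer probes are tested, 54 with a variance trend, 11 with the 6 wild type arrays only and 5 with the 4 shift and air arrays only, where fewer arrays estimate the spread. Leaving out 1 array gave 12 to 321 probes (12 without either air array, 93 without shift array A, 321 without shift array B). The count was 25 to 28 under the other scalings and with zeros kept at a floor, 45 without the ixr1 null shift arrays (an alternative chosen after seeing the data), and 37 with the letter as a replicate block. The letters did not pair wild type air with shift, whose A minus B deviations correlated at 0.066 across probes, but the deviations of the 2 labelled genotypes correlated at 0.189 to 0.648 within a condition. With the letter as a replicate block within each condition, chosen after seeing the data, the difference of response between labelled genotypes gave 26 in place of 0. The same block gave 252 against air and 754 against overnight hypoxia, but it removes the spread between A and B against which conditions are judged, so these 2 counts are no evidence of more changes. Over all probes the median log2 difference, 0.04, moved to -0.08 without further scaling of the deposited values and to 0.10 with arrays centred on their medians.

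The count against overnight hypoxia, 442, ran from 190 to 576 without 1 array and from 363 to 459 otherwise, apart from that block. The difference of response between labelled genotypes otherwise gave 0 except 11 without wild type shift array A and 9 without ixr1 null shift array B, so a range of 0 to 11. The cause was not tested. Of the fixed genes not called, PET9, HSP12 and TSA1 gained a call in at least 1 alternative. On 1 shift array alone, 9 of 32 list medians had another sign, and 3 did under another scaling or the floor. Counting values under the 5th percentile with the zeros, detection changes numbered 78 and 38 in place of 47 and 5.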
